A study of Cricetiscus sungorus with 16 samples.

Results

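The genes described here encode the structural extracellular matrix of the Siberian hamster ovary: collagens of several kinds, laminins and nidogens, proteoglycans, matricellular proteins, and enzymes that process collagen. They were taken as a list of 40 mouse RefSeq transcript identifiers, chosen by what the genes encode, with earlier results of these data known but with no measured value in the rule. Of these, 39 were on the array, with 57 probes between them, and the brightest probe past the detection filter stood for each identifier. In all, 34 passed the filter and were tested, out of 20143 tested identifiers among the 33272 on the array. The files do not pair these identifiers with gene symbols, so members are named by identifier, and the kind of matrix protein each encodes is not assigned one by one.

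Ovaries came from female hamsters gestated and raised under either 16 h of light a day (long days, LD) or 10 h (short days, SD), and were collected at 3 or 8 wk of age. Each of the 4 groups held 4 hamsters. The RNA of a hamster's 2 ovaries together went onto its own mouse oligonucleotide array, in a single colour. The submitters asked how the ovary differs between photoperiods at each age and how it changes between the ages in each photoperiod, short days being known to delay puberty in this species. The labels name no genetic change or drug in any group. For the 4 SD samples at 8 wk some label fields give the LD light hours beside the letters SD, and these samples were grouped by their descriptions.

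Fibrillar collagens give a tissue its tensile strength and are made as precursors that need hydroxylation, trimming and cross-linking before they assemble. Basement membranes are thin sheets built from network-forming collagens, laminins, nidogens and heparan sulphate proteoglycans, and in the ovary one such sheet separates the granulosa cells of each follicle from the theca around it. Small leucine-rich proteoglycans bind collagen fibrils and set their spacing, and matricellular proteins sit in the matrix without being structural and modify how cells attach to it. Ovarian matrix is rebuilt as follicles grow, as they regress and as the stroma between them expands.

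Values are log2 probe intensities minus the 75th percentile of the same array, so 0 marks the 75th percentile and a difference of 1 is a doubling. A level says nothing about one member against another, because each probe has its own response. The probes were designed for mouse transcripts, and whether hamster RNA bound them as the matching mouse RNA would was not tested. From 58.0% to 75.7% of probes per array gave signal well above background. Slide 1 had the lowest 75th percentiles, which spanned 269 to 1007 intensity units over the 16 arrays. Each of the 4 slides carried 1 array of each group, and the values below are given in the order of slides 1 to 4. A group held the same place on every slide, so place and group cannot be told apart. The tests are limma fits over all 16 arrays with Benjamini-Hochberg adjustment over all identifiers tested, and a member rose or fell where its adjusted p was under 0.05. In whole-ovary RNA, fewer cells of a type and less RNA per cell cannot be told apart.

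In short days most matrix members read lower at 8 wk than at 3 wk. Of the 34 tested, 9 fell and 0 rose, against 4.38% of all identifiers that fell and 4.77% that rose. The 9 that fell lost between 1.58- and 2.87-fold. The median change over the 34 members was -0.56, and 28 of them (82.4%) were below 0. Over all 20143 identifiers the median was 0.00 and 49.9% were below 0. The members' median was -0.61, -0.61, -0.60 and -0.37 on slides 1 to 4, below 0 on each slide. In 13 members every measured SD array at 8 wk lay below every SD array at 3 wk, as for 7.83% of all identifiers.

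The deepest fall was that of NM_007742. Its SD arrays read 6.66, 5.70, 5.56 and 5.78 at 3 wk and 4.98, 3.91, 4.23 and 4.50 at 8 wk. The ages did not overlap, and slide 1 was highest at both. The difference was -1.52 ± 0.29 (SE), a 2.87-fold fall with an adjusted p of 0.00316. A second probe for the same identifier also fell, by 1.34 on the log2 scale, and the remaining probe changed by -0.90, with an adjusted p of 0.0548 without slide as a block and 0.00067 with it.

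NM_007743 read 6.34, 5.75, 5.82 and 6.07 in SD at 3 wk and 4.93, 4.48, 4.96 and 4.94 at 8 wk. It fell by 1.17 ± 0.20 (SE) with an adjusted p of 0.00189 in the limma fit. The 8-wk arrays of slides 1, 3 and 4 were nearly equal and that of slide 2 lay below them. NM_015734 read 2.93, 2.56, 2.64 and 2.87 at 3 wk and 1.53, 1.39, 1.77 and 1.90 at 8 wk. Its 2.15-fold fall (SE 0.19 on the log2 scale) had the lowest adjusted p among the members in this limma fit, 0.00132. Its other probe changed by only -0.15 and did not pass, so its probes disagree in size.

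NM_009825 read 5.79, 4.78, 5.13 and 5.08 in SD at 3 wk and 4.46, 3.73, 4.14 and 4.30 at 8 wk. NM_007737, a dim probe, read -2.70, -2.38, -2.91 and -2.59 at 3 wk and -3.57, -3.98, -3.86 and -3.02 at 8 wk. NM_010516 read 1.70, 2.19, 2.21 and 1.75 at 3 wk and 1.06, 0.46, 1.41 and 1.08 at 8 wk. In all 3 the ages were separate, and the array of slide 2 was the lowest at 8 wk. These members fell by 1.03, 0.96 and 0.96 on the log2 scale, with adjusted p-values of 0.0255, 0.0124 and 0.0312 in limma. NM_007737 no longer passed when the background was corrected by normexp, a model of signal plus background, which gave -0.53 with an adjusted p of 0.305. NM_009825 no longer passed without the 3-wk array of slide 1 or 3 or the 8-wk array of slide 2 or 3, with adjusted p-values up to 0.0958. For NM_010516 keeping outlier spots, or leaving out the SD array of slide 2 or 3 at 3 wk or of slide 1, 2 or 4 at 8 wk, ended the call, with adjusted p-values up to 0.119.

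NM_009929 read 2.29, 2.11, 2.19 and 2.58 in SD at 3 wk and 1.50, 1.06, 1.42 and 1.85 at 8 wk, a fall of 0.83 ± 0.17 (SE) with an adjusted p of 0.00532 in limma. NM_009931 read 4.71, 4.48, 4.62 and 4.81 at 3 wk and 3.98, 3.86, 3.60 and 4.28 at 8 wk. It fell by 0.72 ± 0.16 (SE), with an adjusted p of 0.0099. Both have a second probe that fell too, by 0.91 and 0.92 on the log2 scale. NM_010217 read 3.51, 3.32, 2.75 and 2.68 at 3 wk and 2.52, 2.26, 2.57 and 2.26 at 8 wk. The ages were separate, with the narrowest gap on slide 3, and its fall of 0.66 ± 0.19 (SE) had an adjusted p of 0.0359 in limma. It no longer passed without slide 1, without the SD array of slide 1 or 2 at 3 wk or of slide 2, 3 or 4 at 8 wk, without the detection filter, or with only the groups compared, and its adjusted p reached 0.124.

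**Figure D1:**
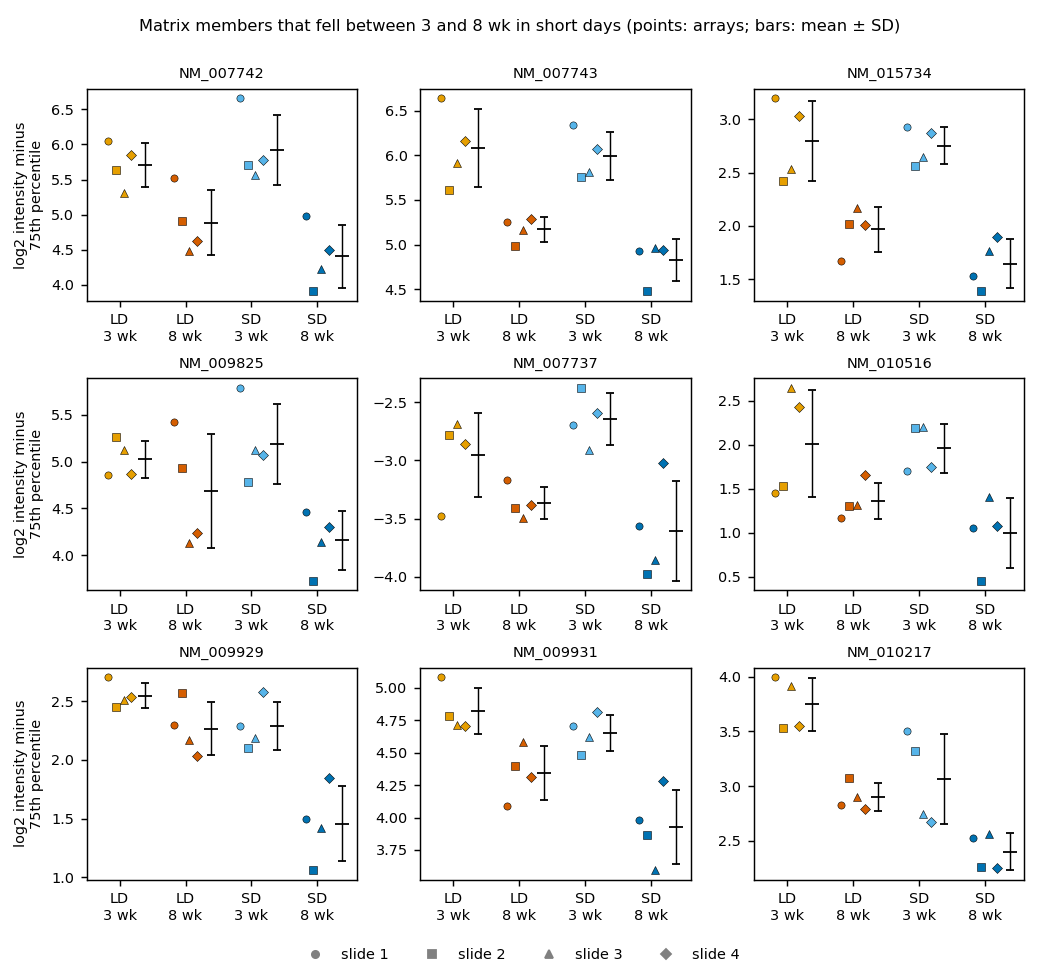
Log2 intensity minus the array's 75th percentile for the 9 members that fell in SD between 3 and 8 wk, with 1 point per array, the marker giving the slide, and bars showing the mean ± SD of the 4 arrays of a group. In every panel the SD arrays at 8 wk lie below those at 3 wk.

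Arrays of the same slide deviated together, and in a fit with slide as a block 20 members passed in SD, 18 that fell and 2 that rose. With the block, 12.2% of all identifiers fell and 10.9% rose. All 14 calls of the fit without the block, over all comparisons, held with it. The 9 further members that fell changed by between -0.43 and -0.99 with the block, with adjusted p-values from 0.00168 to 0.0477.

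Among these, NM_011580 read 1.74, 0.99, 1.06 and 0.80 in SD at 3 wk and 0.75, 0.28, 0.41 and 0.31 at 8 wk. NM_009932 read 3.71, 2.96, 3.26 and 3.58 at 3 wk and 3.09, 2.50, 2.15 and 3.02 at 8 wk. NM_011581 read 3.02, 2.55, 2.98 and 3.23 at 3 wk and 2.68, 2.09, 2.38 and 2.46 at 8 wk. The ages were apart for NM_011580 and overlapped for NM_009932 and NM_011581, while every slide showed a lower value at 8 wk. With the block these fell by 0.71, 0.69 and 0.54 on the log2 scale, with adjusted p-values of 0.00168, 0.00193 and 0.00619 in limma. NM_011580 has 2 other probes, which changed by -1.42 and -0.87. In a limma fit of all probes without the block, their adjusted p-values were 0.00895 and 0.0779.

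NM_009930 differed widely between slides, with 9.17, 7.88, 7.65 and 7.74 in SD at 3 wk and 8.07, 7.28, 7.26 and 7.55 at 8 wk. Slide 1 was highest at both ages, and its 8-wk array lay above the 3-wk arrays of slides 2 to 4, so the ages overlapped although each slide was lower at 8 wk. Its change of -0.57 had an adjusted p of 0.466 without the block and 0.0053 with it. NM_008481 read 0.86, 0.03, -0.01 and -0.19 at 3 wk and 0.19, -0.78, -0.99 and -0.45 at 8 wk. NM_008480 read 0.59, -0.03, -0.22 and 0.16 at 3 wk and 0.00, -0.68, -0.82 and 0.11 at 8 wk. Both were lower at 8 wk on each slide and overlapped across slides. With the block they fell by 0.68 and 0.47 on the log2 scale, with adjusted p-values of 0.0102 and 0.0477 in limma.

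NM_146007 changed little but tightly, with 0.84, 0.43, 0.52 and 0.55 in SD at 3 wk and 0.17, 0.21, 0.14 and 0.10 at 8 wk. NM_008597, a dim probe that cleared background on 3 of 4 arrays in SD at 8 wk, read -4.20, -3.76, -4.27 and -4.21 at 3 wk and -5.31, -4.69, -4.60 and -4.65 at 8 wk. The ages did not overlap for either member. With the block they fell by 0.43 and 0.70 on the log2 scale, with adjusted p-values of 0.0189 and 0.0306 in limma. Over 28 alternatives the change of NM_008597 ran from -0.77 to -0.28, with adjusted p-values up to 0.906 in limma. Its 8-wk SD value on slide 1 lay below the lowest signal well above background on that array, -4.57. NM_008695 was not measured on slide 1 at 3 wk, where its spots were flagged as outliers, in either photoperiod. It read 2.05, 2.25 and 1.89 on the other SD slides at 3 wk and 1.79, 1.01, 1.21 and 1.21 at 8 wk. The fit without the block gave -0.76 with an adjusted p of 0.166, and the block fit gave -0.99 with 0.00464.

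The members that rose in SD with the block were NM_010681 and NM_007833. NM_010681 read 1.73, 0.87, 1.54 and 1.64 at 3 wk and 2.06, 1.98, 2.13 and 1.80 at 8 wk. All 8-wk arrays were above all 3-wk arrays, although the 3-wk array of slide 2 stood low. It rose by 0.55, with an adjusted p of 0.0312 with the block and 0.0805 without it. Its second probe changed by 0.39 and did not pass in a limma fit of all probes. The adjusted p of that probe was 0.127 with the block and 0.213 without it. NM_007833 read 7.81, 7.27, 7.16 and 7.29 at 3 wk and 8.38, 7.60, 7.42 and 7.69 at 8 wk. Each slide was higher at 8 wk, and the rise of 0.39 had an adjusted p of 0.00474 with the block and 0.434 without it. Both went against the direction of most members.

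In long days most members also read lower at 8 wk than at 3 wk. Of the 34, 3 fell and 0 rose, where 1.78% of all identifiers fell and 243 of the 20143 rose. The median change was -0.26, with 28 members below 0, against a median of -0.04 and 56.8% below 0 over all identifiers. On slides 1 to 4 the members' median was -0.30, -0.21, -0.16 and -0.38. In 4 members the LD arrays at 8 wk all lay below those at 3 wk, as for 5.27% of all identifiers. All 3 that fell in LD were among the 9 that fell in SD. The share of all identifiers that fell in LD and also fell in SD was not computed. LD and SD age changes share no array, but they share the 4 slides and the fit.

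NM_007743 read 6.64, 5.62, 5.92 and 6.16 in LD at 3 wk and 5.26, 4.98, 5.16 and 5.29 at 8 wk. NM_010217 read 3.99, 3.53, 3.92 and 3.55 at 3 wk and 2.83, 3.08, 2.90 and 2.79 at 8 wk. NM_015734 read 3.20, 2.42, 2.53 and 3.03 at 3 wk and 1.67, 2.02, 2.17 and 2.01 at 8 wk. None of these 3 overlapped between the ages, and for NM_015734 slides 2 and 3 showed smaller differences than slides 1 and 4. They fell by 0.91 ± 0.20, 0.85 ± 0.19 and 0.83 ± 0.19 (SE) on the log2 scale, with adjusted p-values of 0.0222, 0.0210 and 0.0221 in limma. The other probe of NM_015734 changed by -0.37 in LD. In a limma fit of all probes its adjusted p was 0.692 without the block and 0.160 with it. The LD call of NM_015734 was lost with the mean over its probes, without slide 1 and with only the groups compared. NM_007743 was also lost with only the groups compared. The count of 3 depends on single arrays as well. It was 0 without the LD array of slide 1 at 3 wk or of slide 4 at 8 wk, and 1 without that of slide 4 at 3 wk or of slide 2 or 3 at 8 wk.

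With slide as a block 7 members passed in LD, 6 that fell and 1 that rose, where 7.96% of all identifiers fell and 3.93% rose. With the block, those 6 were also among the 18 that fell in SD, and the matching share over all identifiers was not computed. The additions were NM_007742, NM_011581, NM_009930 and the rising NM_007833. NM_007742 read 6.05, 5.63, 5.31 and 5.84 in LD at 3 wk and 5.52, 4.90, 4.49 and 4.62 at 8 wk. It fell by 0.82 on the log2 scale, with an adjusted p of 0.00276 with the block and 0.164 without it in limma. In a limma fit of all probes, its second probe fell by 0.90 (adjusted p 0.0115 without the block, 0.00179 with it). The remaining probe of NM_007742 changed by -0.66 (adjusted p 0.286 without the block, 0.00941 with it). NM_011581 read 3.27, 3.24, 3.00 and 3.51 at 3 wk and 2.74, 2.66, 2.62 and 3.13 at 8 wk. NM_009930 read 9.18, 7.98, 7.98 and 7.76 at 3 wk and 8.61, 7.61, 7.35 and 7.69 at 8 wk. In these members the ages overlapped across slides, and every slide was lower at 8 wk. NM_011581 fell by 0.47 and NM_009930 by 0.41 on the log2 scale, with adjusted p-values of 0.0243 and 0.0477 with the block in limma. NM_007833 rose by 0.27 with an adjusted p of 0.0482.

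**Figure D2:**
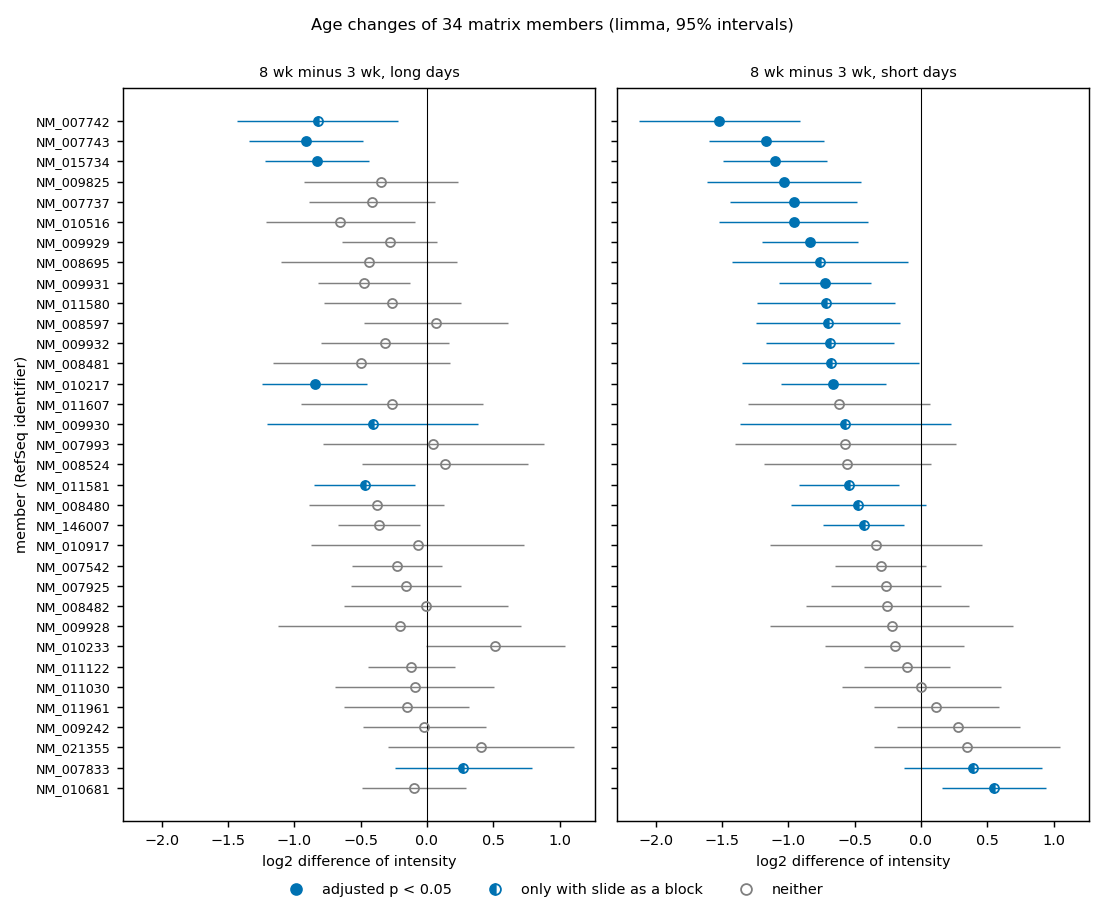
Change of log2 intensity from 3 to 8 wk in LD (left) and SD (right) for the 34 tested members, ordered by the SD change, as the limma estimate without the slide block and its 95% interval. Filled points passed an adjusted p of 0.05 without the block (3 in LD, 9 in SD), and points filled on the left passed only with slide as a block.

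Whether the age change differed between photoperiods was tested as the SD change minus the LD change. No member passed without the block, where 0.0596% of all identifiers passed, and 2 members and 614 of the 20143 identifiers had an unadjusted p under 0.05. With the block 0 members passed in limma against 0.174% of all identifiers, 7 members and 1713 identifiers had an unadjusted p under 0.05, and the members' lowest adjusted p was 0.264. The change was more negative in SD in 27 of 34 members (79.4%), with a median difference of -0.25, against 42.5% and 0.05 over all identifiers. The members' median was -0.27, -0.30, -0.22 and 0.02 on slides 1 to 4, so slide 4 did not show it. The 2 members with an unadjusted p under 0.05 without the block went opposite ways. NM_009929 gave -0.55, with a 95% interval from -1.06 to -0.04. NM_010681 gave 0.65, from 0.09 to 1.20. NM_007742 gave -0.70, with an interval from -1.56 to 0.16 without the block and from -1.11 to -0.28 with it. Without the block the interval of NM_007743 ran from -0.87 to 0.36. That of NM_015734 ran from -0.83 to 0.28, so both leave room for a difference either way.

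At 8 wk, 2 members were lower in SD than in LD ovaries and 0 were higher. Over all 20143 identifiers 45 (0.223%) were lower and 148 were higher. With slide as a block the same 2 members passed, where 162 identifiers (0.804%) were lower and 366 were higher. The median difference over the 34 members was -0.32, with 28 below 0, against -0.01 and 52.0% below 0 over all identifiers. The median was -0.31, -0.50, -0.25 and -0.09 on slides 1 to 4. In 6 members the SD arrays all lay below the LD arrays, as for 1.93% of all identifiers. The SD arrays at 8 wk are also those of the SD age change, so the comparisons are not independent.

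NM_010233 differed most. It read 3.87, 4.31, 4.44 and 4.53 in LD and 3.31, 2.48, 2.42 and 3.47 in SD at 8 wk. The photoperiods did not overlap, and the gap was widest on slides 2 and 3. SD was 2.59-fold lower, a difference of -1.37 ± 0.25 (SE) with an adjusted p of 0.0096 in limma. Its 2 other probes gave -1.19 each, and 1 of them passed in a fit of all probes, with an adjusted p of 0.038. With only the groups compared in the fit, or with the mean over its probes, it no longer passed, with adjusted p-values up to 0.089.

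At 3 wk NM_010233 was lower in SD as well, with 3.75, 4.06, 3.65 and 3.64 in LD and 3.34, 2.71, 2.94 and 3.49 in SD. The difference of -0.66 ± 0.25 (SE) had an unadjusted p of 0.0178 and an adjusted p of 0.9999 in limma. For the probe used, the age changes of NM_010233 were 0.52 in LD and -0.20 in SD and passed in neither photoperiod.

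NM_009929, which also fell with age in SD, read 2.30, 2.57, 2.17 and 2.03 in LD and 1.50, 1.06, 1.42 and 1.85 in SD at 8 wk. The groups were apart, and slide 4 showed the narrowest gap. SD was 1.75-fold lower, a difference of -0.81 ± 0.17 (SE) with an adjusted p of 0.0296 in limma, and its second probe gave -0.87. Its call was lost without slide 1, without the LD array of slide 1 or 2, without the SD array of slide 1, 2 or 3, with only the groups compared, and with normexp, with adjusted p-values up to 0.198. In LD it read 2.70, 2.45, 2.51 and 2.53 at 3 wk, and the LD age change of -0.28 did not pass.

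**Figure D3:**
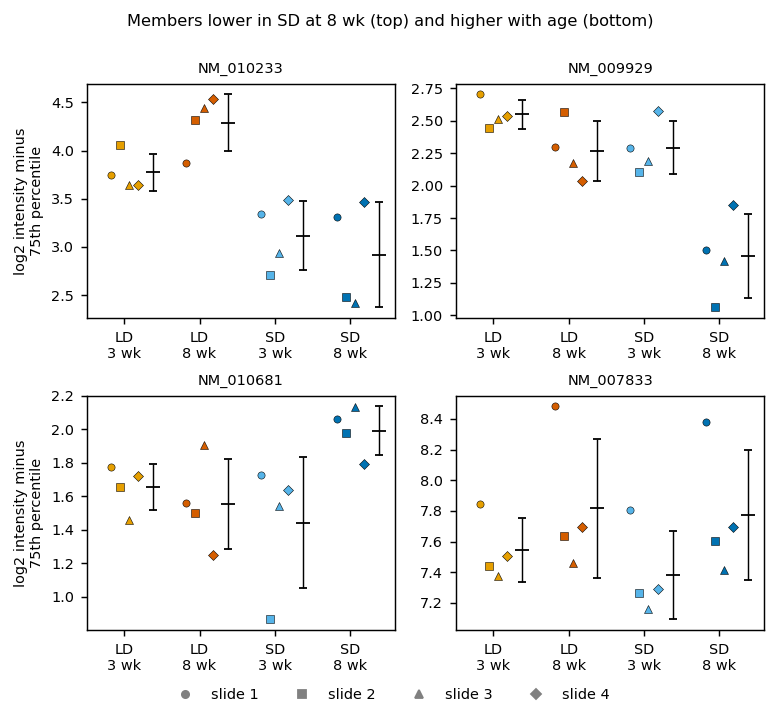
Log2 intensity minus the array's 75th percentile by group for NM_010233 and NM_009929 (top), lower in SD than in LD at 8 wk, and for NM_010681 and NM_007833 (bottom), which rose in SD with slide as a block. Points are arrays, markers give the slide and bars show the mean ± SD of 4 arrays. The SD arrays at 8 wk lie below the LD arrays at 8 wk in both top panels, and slide 1 is highest in every group of NM_007833.

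At 3 wk no difference between photoperiods passed for any member, as for 0% of all identifiers, with or without the block in limma. Without the block 2 members and 330 identifiers had an unadjusted p under 0.05, and with it 5 members and 1298 identifiers. The members' median was -0.07, with 22 below 0 (64.7%), against -0.05 and 62.6% over all identifiers. In 2 members the SD arrays all lay below the LD arrays, as for 1.33% of all identifiers. These were NM_010233 and NM_010217, whose LD and SD values at 3 wk are given above. NM_010217 differed by -0.69 ± 0.19 (SE), with an unadjusted p of 0.00213 and an adjusted p of 0.9999. Of the members with the deepest falls in SD, none passed at 3 wk. NM_007742 differed by 0.22, with a 95% interval from -0.39 to 0.83, and NM_015734 by -0.05, from -0.44 to 0.35.

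**Figure D4:**
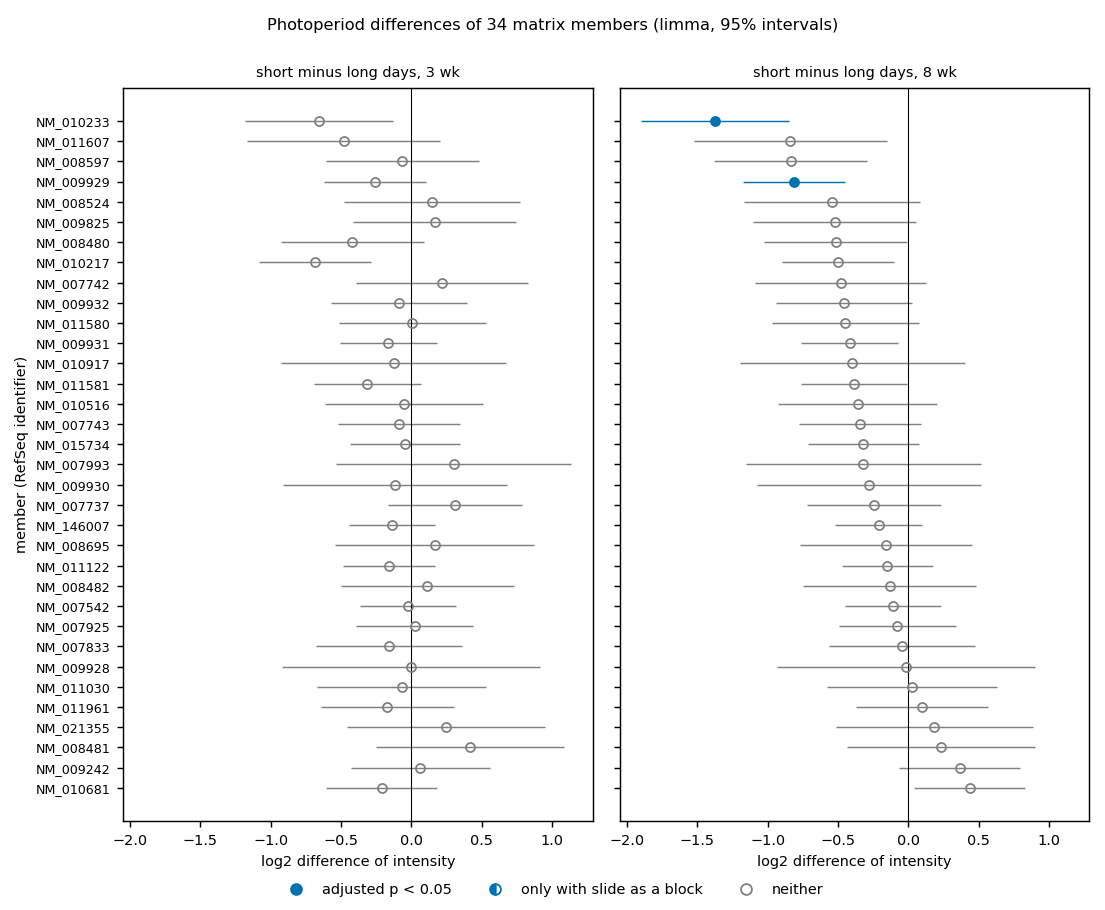
Difference of log2 intensity between SD and LD ovaries at 3 wk (left) and 8 wk (right) for the 34 tested members, ordered by the 8-wk difference, as the limma estimate without the slide block and its 95% interval. Filled points passed an adjusted p of 0.05, which at 8 wk were NM_010233 and NM_009929 and at 3 wk were 0 members.

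The LD values at both ages of members that passed only in SD spread as follows. NM_009825 read 4.86, 5.26, 5.13 and 4.87 at 3 wk and 5.43, 4.93, 4.13 and 4.24 at 8 wk in LD. NM_007737 read -3.48, -2.78, -2.69 and -2.86 at 3 wk and -3.17, -3.41, -3.49 and -3.39 at 8 wk. NM_010516 read 1.46, 1.53, 2.65 and 2.43 at 3 wk and 1.16, 1.31, 1.32 and 1.66 at 8 wk. The ages overlapped in all 3, and slide 1 was higher at 8 wk for NM_009825 and NM_007737 while the other slides were lower. NM_009931 read 5.08, 4.78, 4.72 and 4.71 at 3 wk and 4.09, 4.40, 4.59 and 4.31 at 8 wk, without overlap, and its change of -0.47 had an adjusted p of 0.154 in limma. Its second probe changed by -0.60 in LD. In a limma fit of all probes the adjusted p of that probe was 0.107 without the block and 0.0179 with it.

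Of the members that passed in SD with the block alone, NM_011580 read 1.63, 0.99, 1.11 and 0.84 in LD at 3 wk and 1.44, 0.36, 0.73 and 0.99 at 8 wk. NM_009932 read 3.93, 3.20, 3.25 and 3.47 at 3 wk and 3.40, 3.00, 3.08 and 3.10 at 8 wk. The ages overlapped in both, with slide 1 the highest at each age. The probe used for NM_011580 changed by -0.26 in LD, and its 2 other probes by -0.88 and -0.76. In a limma fit of all probes these 2 had adjusted p-values of 0.0292 and 0.145 with the block. Without the block neither passed. NM_008480 read 0.94, 0.42, 0.62 and 0.22 at 3 wk and 0.57, 0.07, -0.08 and 0.11 at 8 wk. NM_008481 read 0.10, -0.14, -0.36 and -0.57 at 3 wk and 0.11, -0.87, -0.81 and -1.39 at 8 wk. Each slide of NM_008480 was lower at 8 wk, as were slides 2 to 4 of NM_008481, and the ages overlapped in both.

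NM_146007 read 1.12, 0.71, 0.48 and 0.60 in LD at 3 wk and 0.31, 0.54, 0.33 and 0.28 at 8 wk. NM_008597 read -4.22, -3.90, -4.02 and -4.05 at 3 wk and -4.34, -4.07, -3.19 and -4.31 at 8 wk. NM_008695 read 1.91, 2.02 and 1.77 on slides 2 to 4 at 3 wk and 2.35, 1.70, 1.02 and 0.76 on slides 1 to 4 at 8 wk. All 3 overlapped between the ages, and their LD changes of -0.36, 0.07 and -0.44 did not pass. NM_010681 read 1.78, 1.66, 1.46 and 1.72 at 3 wk and 1.56, 1.50, 1.91 and 1.25 at 8 wk, and NM_007833 read 7.85, 7.44, 7.37 and 7.51 at 3 wk and 8.48, 7.64, 7.46 and 7.70 at 8 wk. NM_010681 had no common direction over the slides in LD, and NM_007833 was higher at 8 wk on each.

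Of the 34 tested members, 21 passed in at least 1 comparison in either fit and 13 in none. The matching share over all identifiers was not computed. With slide as a block, 4655 of the 20143 identifiers passed in the SD age change and 2394 in the LD age change. For the probes used, age changes of the 13 members that passed in none ran from -0.26 to 0.41 in LD and from -0.62 to 0.35 in SD. Their differences between SD and LD ran from -0.48 to 0.30 at 3 wk and from -0.84 to 0.37 at 8 wk. The largest of these was NM_011607 at 8 wk, -0.84 with a 95% interval from -1.52 to -0.15, in which slide 4 was higher in SD and the other slides lower. NM_021355 was higher at 8 wk on each slide in both photoperiods, by 0.41 in LD and 0.35 in SD, and did not pass. NM_007993, also among the 13, changed by -0.57 in SD, and its other probe by -1.02. In a limma fit of all probes that other probe had an adjusted p of 0.506 without the block and 0.032 with it. NM_009242 was not measured on slide 1 at 3 wk. It read 7.36, 6.79 and 7.10 in LD and 7.15, 7.08 and 7.21 in SD at 3 wk, and 6.98, 7.28, 6.82 and 7.19 in LD and 7.86, 7.60, 6.98 and 7.28 in SD at 8 wk. Its groups overlapped, and its second probe changed in SD by -0.29 where the first gave 0.28.

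Of 14 other probes of 11 members, 12 had the direction of the probe used in the SD age change, 11 in the LD age change, 13 at 3 wk and 12 at 8 wk. Over the 32 tested members measured on all arrays, group accounted for a median of 46.3% of the variance and slide for 22.0%. Over the 18648 such identifiers in all the medians were 18.9% and 46.9%.

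The remaining 6 of the 40 listed were not tested. NM_008305 was not found on the array. NM_010728 and NM_008760 were well above background on 0 of 16 arrays, NM_009933 on 1 and NM_015784 on 8. NM_010683 was well above background on all 16, but outlier spots left it measured on 13 arrays, with only 1 on slide 1. It read 5.11, 4.75, 4.58 and 4.87 in LD at 3 wk, and on slides 2 to 4 it read 4.71, 4.69 and 4.65 in LD at 8 wk. In SD, slides 2 to 4 read 4.80, 4.69 and 4.78 at 3 wk and 4.67, 4.36 and 4.53 at 8 wk. With outlier spots kept it changed by -0.12 in LD and -0.21 in SD and did not pass.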

How the data were processed

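Ovarian total RNA was amplified and labelled with Cy3, per the labels' protocols, with 1 hamster to an array. Per the file headers, the authors extracted spots with Agilent Feature Extraction 10.5.1.1, and the deposited scanner files give linear intensity, background-corrected within each array but not between arrays. Flags for outlier spots and signal well above background were used as deposited, per the file headers. The authors' deposited value table repeats these intensity values in rounded form on a linear, uncentred scale (column medians of 26.6 to 91.5), and 4 of its 720288 cells were off by over 0.5%.

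Processed intensity was taken as log2 minus each array's 75th percentile. Outlier spots were left out. Probes were kept if all 4 arrays of some group were well above background, with at least 12 arrays measured and 2 in each group and slide. The brightest one was used per identifier. Fits used limma 3.58.1 in R 4.3.3 (lmFit, then eBayes with its trend option) on the 16 arrays together, without slide. An alternative added slide as a fixed block. Deviations of same-slide arrays from their group means correlated at 0.451 in the median and 0.224 at least. The scripts were tested on simulated data. Precision is limited by the number of arrays. Samples were grouped by description, and replicate numbers are slide numbers.

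The members and lists were chosen with earlier results of these data known. The rule gave values in every sample for the members past the threshold in either fit, at most the 20 with the largest difference, and for members measured on fewer than 16 arrays; NM_007833, outside it, was added after its values were seen because it rose. The ordering by protein class, other matrix genes and cell type markers rest on gene symbols and were not used here, so the tissue label was not checked against markers. Alternatives changed the slide term, scaling, background, filter, use of probes, the trend, the arrays and the value table. In the normexp alternative (offset 50), 41 spots on 6 arrays with a local background over 10 times the array's median were left out, a choice made after seeing the data.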

Additional observations from a re-analysis of the deposited data

Results flagged for a closer look

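Of 149 sets of 4 arrays over the members, 14 held an array that stood apart from the other 3 by Dixon's test, where chance flags about 1 in 20. Of members that passed a comparison, NM_007743 stood low on slide 2 in SD at 8 wk (4.48). NM_009930 stood high on slide 1 in both 3-wk groups (9.18 in LD, 9.17 in SD). NM_146007 stood high on slide 2 in LD at 8 wk (0.54). NM_008597 stood high on slide 2 in SD at 3 wk (-3.76) and low on slide 1 in SD at 8 wk (-5.31).

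Among members that passed none, 5 other sets also had their odd array on slide 1. NM_007925 (0.25) and NM_021355 (-1.53) were low in SD at 8 wk, NM_021355 was low in LD at 3 wk (-2.66), and in LD at 8 wk NM_007993 was high (0.89) and NM_011961 low (-4.25). On slide 4 in LD at 8 wk NM_011607 was low (-2.43), and on slide 3 in that group NM_011122 was high (3.24). The untested NM_009933 was low on slide 1 in SD at 3 wk (-6.94), where no array was well above background. Slide 1 had the lowest 75th percentiles of intensity, and its part in these values was not tested.

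NM_010233 read higher at 8 than at 3 wk on each slide in LD (by 0.12 to 0.89) and lower on each slide in SD (changes of -0.52 to -0.02), and neither age change passed. The difference between these changes was -0.72, with a 95% interval from -1.46 to 0.03, and in limma its adjusted p was 0.99998 without slide as a block and 0.572 with it.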

How the results depend on the processing

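The age change in SD kept 28 or 29 members below 0 in each of 28 alternatives, with medians from -0.62 to -0.44. NM_007742, NM_007743, NM_009929, NM_009931 and NM_015734 kept their SD calls in all of them. The 9 SD calls became 20 with slide as a fixed or a random block and 14 without slide 1, and ran from 6 to 11 with single arrays left out. Over all 20143 identifiers the 1844 SD calls became 4655 with the fixed block, 4407 with the random block and 2865 without slide 1. These ran from 1139 to 2201 with single arrays left out. The 3 LD calls became 7 with slide as a fixed or a random block, 5 with quantile normalization and 1 with only the groups compared, and ran from 0 to 3 with single arrays left out. Over all identifiers the 601 LD calls became 2394 with the fixed block and 2259 with the random block. They became 764 with quantile normalization and 220 with only the groups compared, and ran from 232 to 682 with single arrays left out. The 2 members lower in SD at 8 wk became 1 with normexp, 1 with the mean over probes, 1 without slide 1 and 0 with only the groups compared, and were 1 or 2 with single arrays left out. Over all identifiers the 45 lower in SD at 8 wk became 32 with normexp and 44 with the mean over probes. They became 69 without slide 1 and 12 with only the groups compared, and ran from 20 to 62 with single arrays left out. The block fits with other normalizations, without slide 1 or without single arrays were added after the data were seen. Without slide 1 the 8-wk count with the block was 1. With single arrays left out, the block counts ran from 16 to 23 in SD, 4 to 9 in LD and 1 to 5 at 8 wk. In these the LD count was 4 without the LD array of slide 2 at 3 wk, and the 8-wk count was 5 without the SD array of slide 4 and 1 without that of slide 1, 2 or 3. Over all identifiers the block counts with single arrays left out ran from 3038 to 5421 in SD and 1076 to 2420 in LD. At 8 wk they ran from 244 to 670, and 310 passed without slide 1. The cause of these shifts was not tested. No member passed at 3 wk in any of 28 alternatives, or in the interaction in any of 27. For the 29 changes or differences of a member that passed in either fit, 28 alternatives gave 812 values, of which 710 kept their side of the threshold, 55 gained a call, 47 lost one and 0 changed direction. Normexp is given without the 41 spots of high local background; with them its estimate of the mean background failed on 5 arrays, reaching -3639, and 0 members passed in each comparison. No paired analysis by animal was possible because each hamster gave 1 array, and the arrays are paired by slide alone, in the fits with slide as a block. Signal over background limits the 5 members on the array that were not tested, except NM_010683.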
